A study of Mus musculus with 6 samples.

Results

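The solute carrier family 25 (Slc25) was followed here across liver libraries of mice fed polypropylene microplastic. Its 44 genes were taken from the 56674 rows of the count table as every symbol of the form Slc25a followed by a number, leaving out Slc25a13, Slc25a15 and Slc25a20. Liver RNA of male C57BL/6 mice, an inbred laboratory strain, was sequenced from animals given chow with polypropylene microplastic (PP-MP, 3 samples) and from animals given normal chow (control, 3 samples). Titles and growth protocol name 71 weeks for both diets, and no further allele or agent is named. The treatment protocol reads PS-MP in all 6 records, so diets were taken from titles and characteristics. The labels used here state no dose and no particle size. The labels do not state that the samples of a diet came from separate animals, so p-values measure only the spread between these samples, which may be technical. The series asks what a microplastic diet does to the liver transcriptome.

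Slc25 proteins are carriers of the inner mitochondrial membrane that exchange or co-transport small molecules between the cytosol and the matrix. They bring in ADP, phosphate, amino acids and cofactors, and they let out ATP and citrate. In hepatocytes they connect the respiratory chain, fatty acid synthesis, gluconeogenesis, ureagenesis and haem synthesis with the cytosol. The family name covers a few proteins that sit elsewhere. Slc25a17 is a carrier of the peroxisomal membrane and Slc25a46 a protein of the outer mitochondrial membrane.

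RefSeq promoter windows (GRCm38.p6, 300 bases around the transcript start) were held for 33 of the 44 members. Those of 4 members are printed, the members with an unadjusted p under 0.05 for which a window was held. They are the citrate carrier gene Slc25a1, the peroxisomal carrier gene Slc25a17 and the ATP-Mg/phosphate carrier gene Slc25a23, all lower in PP-MP, and the aspartate/glutamate carrier gene Slc25a12, higher in PP-MP. Capitals mark a match, on either strand, to one of the motifs searched.
Slc25a1, chr16:17928170-17928469, minus strand: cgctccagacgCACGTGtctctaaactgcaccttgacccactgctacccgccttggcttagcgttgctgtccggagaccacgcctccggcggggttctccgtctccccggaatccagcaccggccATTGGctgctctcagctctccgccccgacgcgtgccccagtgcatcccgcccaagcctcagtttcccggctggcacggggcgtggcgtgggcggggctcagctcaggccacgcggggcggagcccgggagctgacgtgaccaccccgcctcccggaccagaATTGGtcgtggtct
Slc25a17, chr15:81360716-81361015, minus strand: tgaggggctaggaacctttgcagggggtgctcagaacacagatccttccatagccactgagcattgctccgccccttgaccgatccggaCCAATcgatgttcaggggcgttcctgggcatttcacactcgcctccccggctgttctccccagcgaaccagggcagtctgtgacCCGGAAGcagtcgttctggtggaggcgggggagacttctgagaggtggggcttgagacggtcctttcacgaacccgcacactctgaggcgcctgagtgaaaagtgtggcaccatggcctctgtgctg
Slc25a23, chr17:57059814-57060113, minus strand: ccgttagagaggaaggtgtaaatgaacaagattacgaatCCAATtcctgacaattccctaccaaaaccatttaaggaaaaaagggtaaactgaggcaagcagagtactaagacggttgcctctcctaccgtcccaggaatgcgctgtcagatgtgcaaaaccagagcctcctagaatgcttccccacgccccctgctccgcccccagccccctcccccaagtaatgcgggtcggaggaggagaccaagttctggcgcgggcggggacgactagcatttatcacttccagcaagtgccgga
Slc25a12, chr2:71367706-71368005, minus strand: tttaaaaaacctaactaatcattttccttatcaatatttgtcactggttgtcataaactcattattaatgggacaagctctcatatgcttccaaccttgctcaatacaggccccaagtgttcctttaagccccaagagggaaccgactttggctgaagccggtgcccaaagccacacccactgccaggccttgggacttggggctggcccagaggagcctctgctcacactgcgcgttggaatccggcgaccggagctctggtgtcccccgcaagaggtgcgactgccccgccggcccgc
The capitals in the Slc25a1 window are a CACGTG match and 2 CCAAT matches on the opposite strand. The Slc25a17 window held CCAAT and CCGGAAG, the Slc25a23 window held CCAAT, and the Slc25a12 window held none of the 6 motifs. The letters CCAAT, a general promoter element, were present in 18 of the 33 members with a window (54.5%), against 41.8% of 20990 genes with a window of the same length. The ETS-type letters CCGGAAG were present in 6 members (18.2%, against 11.7% of genes), the E-box CACGTG in 5 (15.2%, against 8.63%) and the cyclic AMP element TGACGTCA in 2 (6.06%, against 2.37%). The sterol element TCACNCCAC was present in 1 member (3.03%, against 1.49%) and the nuclear respiratory factor 1 motif in 0 (against 1.28%). Member windows were richer in G and C, with a median of 60.0% against 55.0% over all genes. A match describes letters in the window and no binding.

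Slc25 members took 0.227%, 0.316% and 0.282% of all counts in PP-MP 1, 2 and 3, against 0.297%, 0.224% and 0.293% in control 1, 2 and 3. The shares of the diets overlapped. In CPM, counts relative to library sizes scaled by TMM factors that align the bulk of genes between libraries, the members summed to 2536 ± 406 CPM in PP-MP and 2932 ± 342 CPM in control (SD, n = 3 each). Divided by exonic length, 5 genes carried 70.0% of the family's summed mean level over all libraries. They were Slc25a5 (186 CPM per kilobase), Slc25a47 (146), Slc25a10 (97.7), Slc25a1 (94.2) and Slc25a39 (83.7). Of the 44 members 28 had a mean of at least 1 CPM per kilobase.

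**Figure D1:**
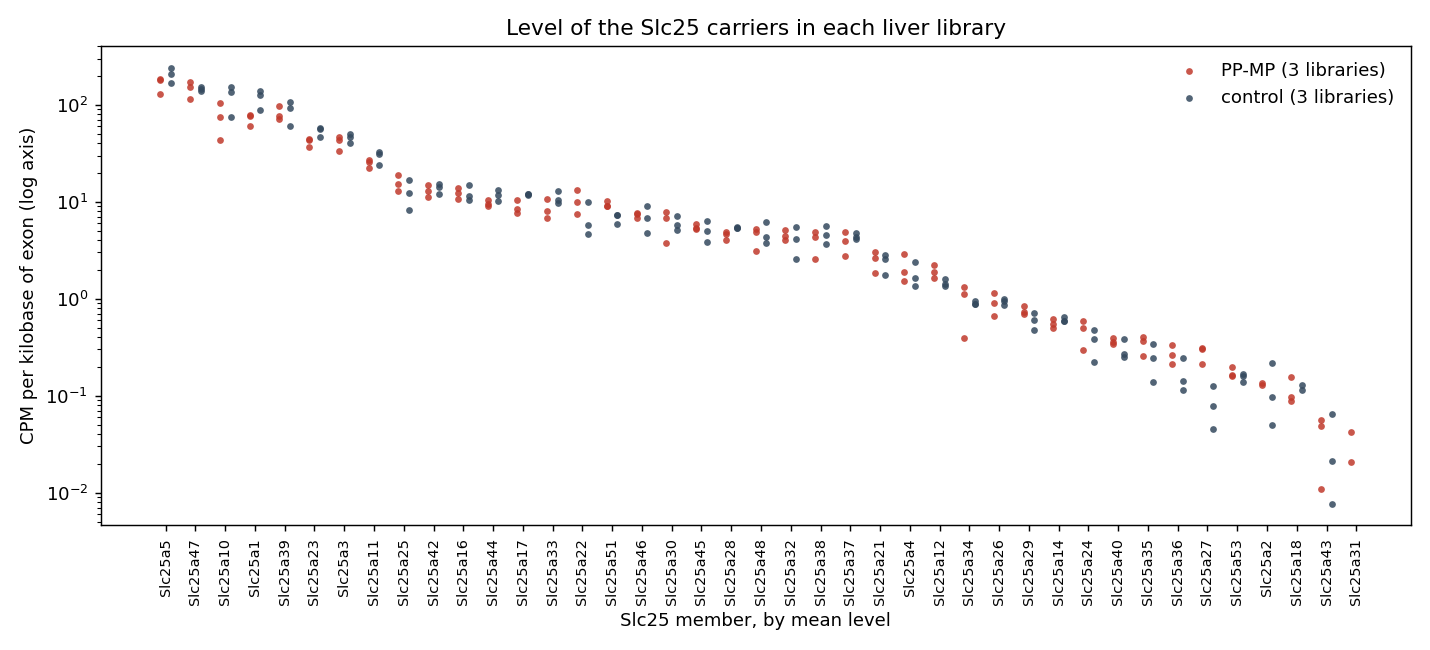
Level of Slc25 members in every library, as CPM per kilobase of exon on a log axis, ordered by mean level, with PP-MP points left of control points and values of 0 not drawn. Slc25a5 and Slc25a47 stand at the top, at 186 and 146 CPM per kilobase on average, and the points of the diets lie within each other's range for most members.

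Of the 44 members 40 passed the filter on low counts. With edgeR's quasi-likelihood test 0 of them were called higher and 0 lower in PP-MP at an adjusted p of 0.05 (Benjamini-Hochberg over 18284 genes; adjusted p from 0.23 to 0.99), against a background of 0.00547% of genes called in each direction. An unadjusted p under 0.05 was found for 3 lower members (7.50%, background 5.81%) and 3 higher members (7.50%, background 8.05%). DESeq2 called 0 lower and 1 higher member, Slc25a27 (background 1.87% lower and 2.38% higher). Limma-voom called 0 members, and over all 18284 genes it called 1 lower and 0 higher. The median log2 fold change over the 40 members was 0.01, against 0.03 over all genes tested, with 19 fitted values below and 21 above 0. For 28 of the 40 members (70.0%) the whole 95% interval stayed inside a 2-fold difference either way, against 46.3% of all genes.

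Libraries did not overlap between the diets for 5 members lower in PP-MP (12.5%, background 9.79%) and 3 higher in PP-MP (7.50%, background 12.2%). The lower ones included Slc25a1, Slc25a17, Slc25a23 and Slc25a28, and the higher ones Slc25a12, Slc25a27 and Slc25a51. Both shares were near the background. Directions below are relative to TMM scaling. TMM factors were 1.10, 1.12 and 1.03 in PP-MP 1, 2 and 3, against 0.957, 0.882 and 0.929 in control 1, 2 and 3, and library totals in their place moved the median log2 fold change of all genes to 0.26. With library totals 0 members (background 2.59%) were lower and 6 (15%, background 24.5%) higher without overlap, the 6 including Slc25a12, Slc25a27 and Slc25a51. Leaving out a library eases the condition for every gene. Without control 2, 10 members were lower (25%, all genes 19.3%) and 6 higher (15%, all genes 24.8%). Without PP-MP 2, 7 members were lower (17.5%, all genes 13.4%) and 4 higher (10%, all genes 17.0%). The higher count was 5 (all genes 16.5%) without PP-MP 1, 6 (all genes 19.2%) without PP-MP 3, 5 (all genes 17.1%) without control 1 and 7 (all genes 15.9%) without control 3.

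Total counts were 81073738 to 100252360 in PP-MP and 68357478 to 112566641 in control. No pair of libraries within a diet matched within sampling noise. On the first principal component, with 39.8% of the variance, PP-MP libraries lay at 17.0 to 56.3 and control libraries at -44.8 to -14.9. Control 2 stood apart on the second principal component, which held 20.6% of the variance. It gave 11.2% of its counts to the ribosomal RNA gene Rn18s-rs5, against 0.655% to 0.750% in PP-MP and 1.15% and 2.92% in the other control libraries. PP-MP 1 was the lowest of the 6 libraries for 17 of the 40 tested members. The 8 hepatocyte markers summed to 67325 to 81006 CPM in PP-MP and 62452 to 74145 CPM in control, most of it Alb. Of these 8 markers 1, Apoa1, had an unadjusted p under 0.05, higher with overlap (log2 fold change 1.77, edgeR adjusted p = 0.30; background 8.05%). The 8 Kupffer cell and macrophage markers, none at 0, summed to 138 to 527 CPM in PP-MP and 99.4 to 132 CPM in control, highest in PP-MP 1. Of these 8 markers 5 had an unadjusted p under 0.05, all higher (background 8.05%). The 8 neutrophil markers summed to 21.4, 3.01 and 2.38 CPM in PP-MP 1, 2 and 3, against 0.880 to 1.18 CPM in control. Of the 4 tested, 3 were higher at that level (background 8.05%). Camp, Ly6g, Mpo and Ngp did not pass the filter, and Camp, Ly6g and Mpo had 0 counts in every control library. In PP-MP 1, 2 and 3 Camp had 58, 0 and 0 counts, Ly6g 10, 3 and 0, and Mpo 101, 10 and 0. The 8 lymphocyte markers summed to 5.35 to 7.53 CPM in PP-MP and 7.98 to 16.1 CPM in control, with 3 of 8 lower at that level (background 5.81%). None of these markers was at 0 in all 6 libraries. The part of these cells in the carrier values was not tested. In whole tissue, fewer cells of a type and less RNA per cell cannot be told apart.

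**Figure D2:**
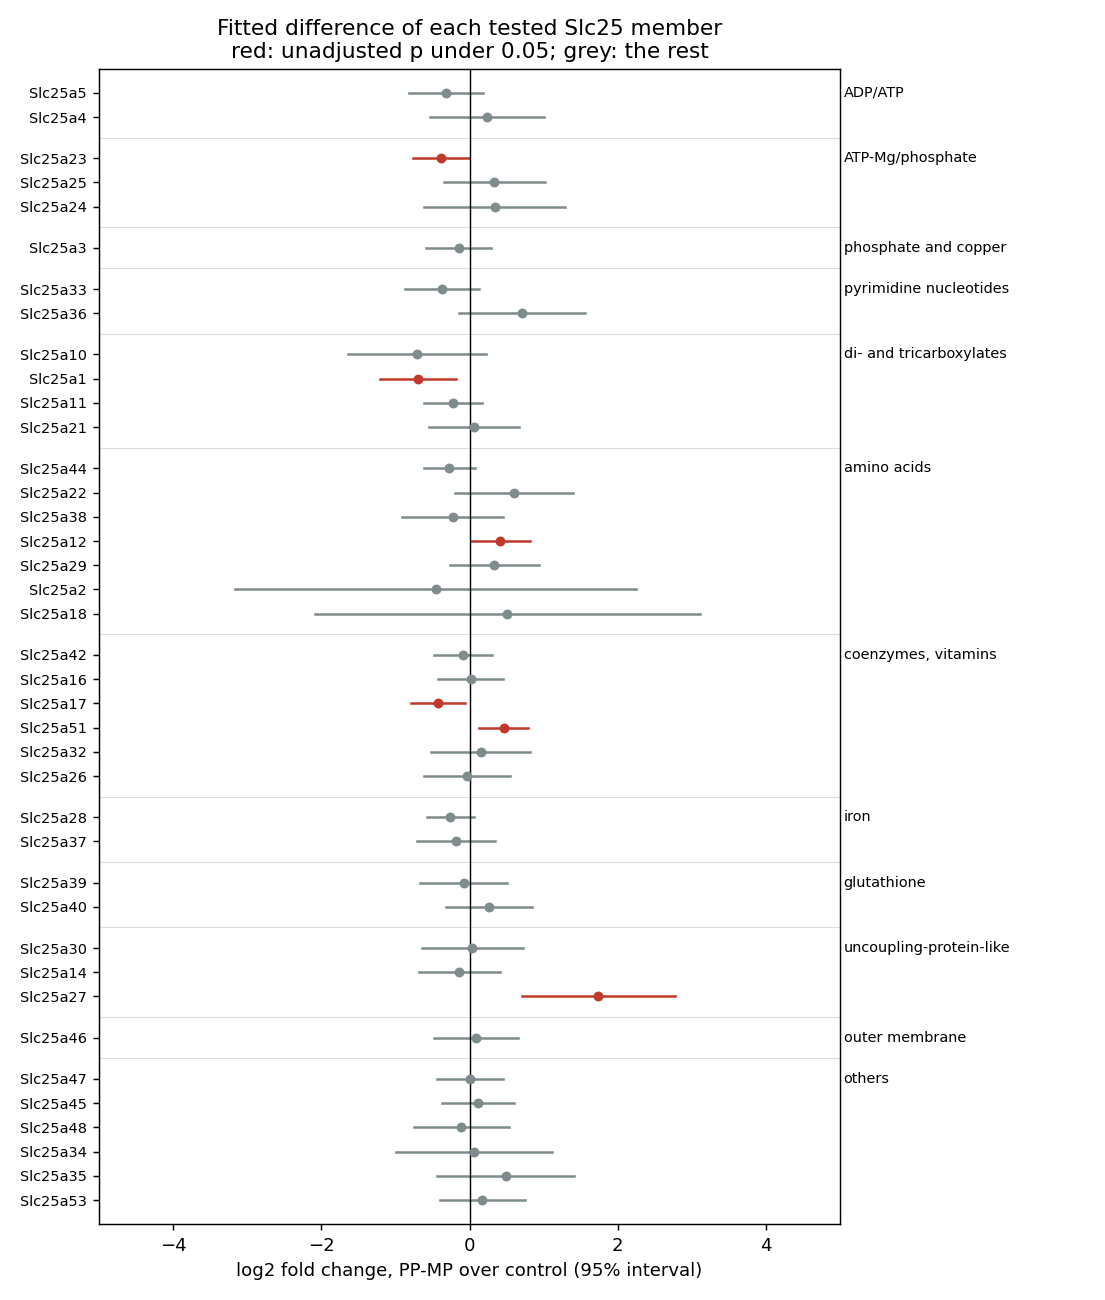
Log2 fold change of 39 of the 40 tested Slc25 members, PP-MP over control, with 95% intervals, grouped by substrate. Red marks the 6 members with an unadjusted p under 0.05, which run from -0.70 for Slc25a1 to 1.74 for Slc25a27, and the median over all 40 is 0.01.

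The carriers of di- and tricarboxylates had the lowest median log2 fold change of the substrate groups with more than 2 tested members. The median was -0.46 over 4 genes, 3 of them with fitted values below 0 (47.4% of all genes tested). Of the 4 genes 1 was lower with an unadjusted p under 0.05 (background 5.81%). Slc25a1 encodes the citrate carrier, which exports citrate from the matrix as the carbon source of fatty acid and sterol synthesis. Its level was 129.9, 165 and 172 CPM in PP-MP 1, 2 and 3, against 297, 190.1 and 269.9 CPM in control 1, 2 and 3. Every PP-MP library lay below every control library, with control 2 the nearest. The log2 fold change was -0.70 (SE 0.21, 95% interval -1.21 to -0.19), which missed the threshold (edgeR adjusted p = 0.28; DESeq2 adjusted p = 0.078). Over the alternatives its fold change kept its direction, from -0.85 to -0.47, and its adjusted p ran from 0.078 to 0.56.

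Slc25a10 encodes the dicarboxylate carrier, which exchanges malate or succinate for phosphate. It stood at 149, 361 and 259 CPM in PP-MP 1, 2 and 3, against 470.1, 259 and 527 CPM in control 1, 2 and 3. Control 2 lay within the PP-MP range, and the spread within each diet was wide. The log2 fold change was -0.71 (SE 0.39, edgeR adjusted p = 0.46), the lowest fitted value of the 40 members, and ran from -1.04 without PP-MP 2 to -0.43 without PP-MP 1. Slc25a11, the 2-oxoglutarate/malate carrier of the malate-aspartate shuttle, averaged 53.0 ± 5.04 CPM in PP-MP and 62.0 ± 10.1 CPM in control (log2 fold change -0.23). Slc25a21, a carrier of oxoadipate and oxoglutarate, averaged 12.2 ± 2.92 CPM in PP-MP and 11.7 ± 2.70 CPM in control.

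ADP/ATP carriers export newly made ATP from the matrix. The ubiquitous form, Slc25a5, was at 215, 305 and 298 CPM in PP-MP 1, 2 and 3, against 342, 277 and 397 CPM in control 1, 2 and 3. The diets overlapped (log2 fold change -0.31, SE 0.21, edgeR adjusted p = 0.53). Slc25a4, the form of heart and skeletal muscle, was low, at 4.97 ± 1.66 CPM in PP-MP and 4.21 ± 1.25 CPM in control. Of 8 striated muscle markers 6 had 0 counts in all libraries (Acta1, Actn2, Ckm, Myh1, Myh4 and Tnnt3), and the list summed to 0.692 to 0.852 CPM in PP-MP and 0.634 to 0.863 CPM in control. Slc25a31, the form of testis, had 9, 4 and 0 counts in PP-MP 1, 2 and 3 and 0 in every control library. Slc25a5 made up 98.6% ± 0.740 of the ADP/ATP carrier level per length in PP-MP and 99.1% ± 0.433 in control (exact permutation p = 0.5, two-sided, n = 3 each; 0.75 adjusted over the 3 carrier shares compared). With 3 against 3 no p below 0.1 can be reached.

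The ATP-Mg/phosphate carriers are calcium-regulated and adjust the adenine nucleotide pool of the matrix. Slc25a23 was the most abundant of them. It had 193, 228 and 233 CPM in PP-MP 1, 2 and 3, against 305, 248 and 299 CPM in control 1, 2 and 3. The groups did not overlap (log2 fold change -0.38, SE 0.16, edgeR adjusted p = 0.36). Slc25a25 had 119, 100.4 and 150.2 CPM in PP-MP 1, 2 and 3, against 131, 97.4 and 64.3 CPM in control 1, 2 and 3. Its groups overlapped, and control 3 was the lowest library (log2 fold change 0.34, SE 0.29, edgeR adjusted p = 0.62). Slc25a25 made up 29.0%, 22.7% and 30.1% of the level per length of this group in PP-MP 1, 2 and 3, against 22.4%, 20.8% and 12.5% in control 1, 2 and 3. Each PP-MP share was above each control share, the nearest pair being PP-MP 2 and control 1 (exact permutation p = 0.1, two-sided, n = 3 each, the smallest possible; 0.3 adjusted over the 3 shares). This share does not depend on the scaling between libraries. Slc25a24 averaged 1.58 ± 0.517 CPM in PP-MP and 1.24 ± 0.452 CPM in control, and Slc25a41 had 0 counts in all 6 libraries. In the annotation 12 members share 32 to 1151 exonic bases with a gene on the opposite strand, and whether counting used strand is not stated in the labels. For Slc25a23 this is Gm17168, at 0.0689 to 0.193 CPM, and for Slc25a25 it is Naif1, at 3.04 to 3.68 CPM.

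Phosphate for ATP synthesis enters through Slc25a3, which also carries copper. It averaged 229 ± 39.9 CPM in PP-MP and 254 ± 29.3 CPM in control (log2 fold change -0.15, 95% interval -0.59 to 0.29). The pyrimidine nucleotide carriers, which supply mitochondrial DNA and RNA synthesis, had opposite signs. Slc25a33 averaged 16.1 ± 3.68 CPM in PP-MP and 20.8 ± 3.26 CPM in control (log2 fold change -0.37, SE 0.21, edgeR adjusted p = 0.47), and 281 of its 1887 exonic bases are shared with Gm13068, an antisense gene at 0.220 CPM or less. Slc25a36 had 3.23, 2.51 and 2.04 CPM in PP-MP 1, 2 and 3, against 1.09, 2.34 and 1.36 CPM in control 1, 2 and 3. Control 2 was the library in the PP-MP range (log2 fold change 0.70, SE 0.36, edgeR adjusted p = 0.43). Slc25a36 was chosen after its values were seen, as the highest fitted value among the tested members not taken up singly by the naming rule.

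Among the carriers of coenzymes and vitamins, Slc25a17 was lower and Slc25a51 higher without overlap. Slc25a51, the importer of NAD into the matrix, was at 50.2, 49.3 and 56.0 CPM in PP-MP 1, 2 and 3, against 40.3, 40.0 and 32.6 CPM in control 1, 2 and 3. Every PP-MP library lay above every control library, the nearest pair being PP-MP 2 and control 1. Its log2 fold change was 0.46 (SE 0.14, 95% interval 0.13 to 0.80) and missed the threshold (edgeR adjusted p = 0.27; DESeq2 adjusted p = 0.11). Over the alternatives it ranged from 0.39 to 0.69, with adjusted p from 0.11 to 0.51. Slc25a17, the peroxisomal carrier of coenzyme A, FAD and NAD, was at 21.9, 30.0 and 24.1 CPM in PP-MP 1, 2 and 3, against 34.4, 34.3 and 33.1 CPM in control 1, 2 and 3. Control libraries lay within a narrow band above all PP-MP libraries (log2 fold change -0.42, SE 0.15, edgeR adjusted p = 0.32).

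Slc25a42, a coenzyme A importer, averaged 78.1 ± 10.7 CPM in PP-MP and 83.0 ± 10.5 CPM in control (95% interval of the log2 fold change -0.48 to 0.30). Slc25a16, linked to coenzyme A, averaged 59.3 ± 8.34 CPM in PP-MP and 58.6 ± 10.9 CPM in control. The folate and FAD carrier gene Slc25a32 averaged 27.5 ± 3.51 CPM in PP-MP and 24.8 ± 8.93 CPM in control, and the S-adenosylmethionine carrier gene Slc25a26 4.38 ± 1.17 CPM in PP-MP and 4.49 ± 0.292 CPM in control.

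**Figure D3:**
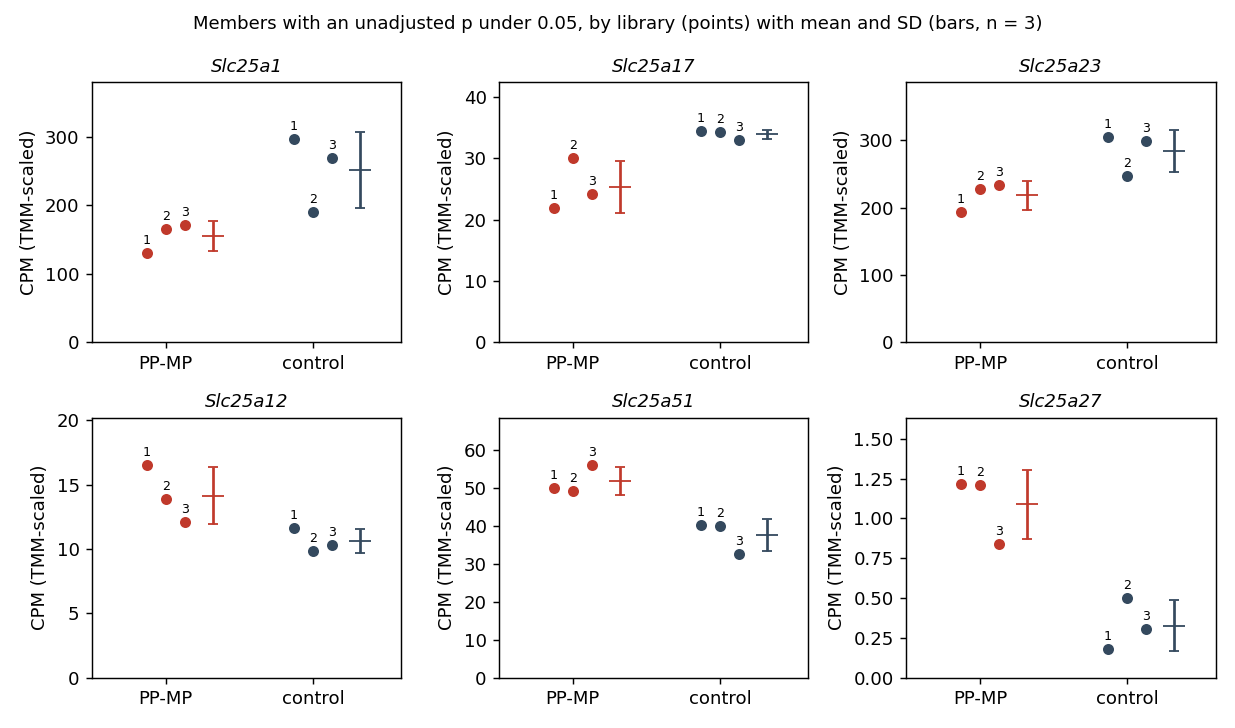
TMM-scaled CPM of the 6 members with an unadjusted p under 0.05, by library (numbered points) with mean and SD (n = 3 each), PP-MP left of control. Slc25a1, Slc25a17 and Slc25a23 lie lower in PP-MP, and Slc25a12, Slc25a51 and Slc25a27 higher, with no overlap between the diets.

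Amino acid carriers numbered 7, with 1 member higher without overlap (background 12.2%), a share near the background. Slc25a12, the aspartate/glutamate carrier best known from brain and muscle, was at 16.5, 13.9 and 12.1 CPM in PP-MP 1, 2 and 3, against 11.6, 9.85 and 10.3 CPM in control 1, 2 and 3. PP-MP 3 and control 1 nearly met (log2 fold change 0.42, SE 0.17, edgeR adjusted p = 0.35). Its closest relative, the liver form Slc25a13, lies outside the family as chosen here and averaged 69.4 ± 13.5 CPM in PP-MP and 69.6 ± 4.11 CPM in control. Slc25a22, a glutamate carrier that feeds glutamate to the matrix, was at 44.8, 79.6 and 60.0 CPM in PP-MP 1, 2 and 3, against 27.97, 59.3 and 34.2 CPM in control 1, 2 and 3. PP-MP 2 and control 2 were the highest of their diets, and the groups overlapped through control 2 (log2 fold change 0.60, SE 0.33, edgeR adjusted p = 0.47).

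The remaining amino acid carriers overlapped between diets. Slc25a44, a carrier of branched-chain amino acids, averaged 34.5 ± 2.38 CPM in PP-MP and 41.8 ± 5.42 CPM in control. The glycine carrier gene Slc25a38, needed for haem synthesis, averaged 10.8 ± 3.35 CPM in PP-MP and 12.7 ± 2.78 CPM in control, and the basic amino acid carrier gene Slc25a29 1.98 ± 0.202 CPM in PP-MP and 1.57 ± 0.315 CPM in control. Slc25a2, an ornithine carrier, and Slc25a18, a glutamate carrier, had at most 0.299 CPM in any library, and their 95% intervals, -3.16 to 2.25 and -2.09 to 3.11 on the log2 scale, leave the difference undetermined at this depth.

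Mitoferrins import iron for haem and iron-sulphur clusters. Slc25a28 (mitoferrin 2), the form of non-erythroid tissues, was at 15.1, 18.5 and 17.3 CPM in PP-MP 1, 2 and 3, against 20.3, 19.97 and 20.6 CPM in control 1, 2 and 3. All PP-MP libraries were below the narrow control range (log2 fold change -0.26, SE 0.13, edgeR adjusted p = 0.43). Slc25a37 (mitoferrin 1), known from developing red cells, was at 23.3 ± 6.63 CPM in PP-MP and 26.5 ± 1.72 CPM in control. The 7 erythroid markers present in the table, none at 0 throughout, summed to 391.95, 768 and 581 CPM in PP-MP 1, 2 and 3, against 491, 266 and 510.1 CPM in control 1, 2 and 3. Of these markers Hbb-bs and Hbb-bt had an unadjusted p under 0.05, both higher, while Alas2, the erythroid enzyme of haem synthesis, was at 39.8, 61.6 and 63.0 CPM in PP-MP 1, 2 and 3, against 72.9, 67.1 and 75.5 CPM in control 1, 2 and 3, lower without overlap (log2 fold change -0.39, edgeR adjusted p = 0.43). PP-MP 1 was the lowest PP-MP library for the marker sum and for Slc25a37, whereas control 2 had the lowest marker sum of all libraries and 26.1 CPM of Slc25a37, between the other control libraries. Their part in the Slc25a37 values was not tested. Slc25a28 made up 54.5% ± 4.85 of the mitoferrin level per length in PP-MP and 55.2% ± 1.75 in control (exact permutation p = 0.9, two-sided, n = 3 each; 0.9 adjusted over the 3 shares).

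Glutathione reaches the matrix through Slc25a39 and Slc25a40. Slc25a39 was the abundant form, with 196, 209.7 and 268 CPM in PP-MP 1, 2 and 3, against 253, 165 and 293 CPM in control 1, 2 and 3. The groups overlapped, with control 2 the lowest library (log2 fold change -0.08, 95% interval -0.67 to 0.51). Slc25a40 averaged 3.05 ± 0.201 CPM in PP-MP and 2.54 ± 0.624 CPM in control.

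Slc25a27, a relative of the uncoupling proteins known mainly from brain, had the largest fitted difference of the family at a very low level. Its counts were 123, 110 and 87 in PP-MP 1, 2 and 3, against 13, 30 and 32 in control 1, 2 and 3, or 1.22, 1.21 and 0.841 CPM in PP-MP, against 0.179, 0.498 and 0.306 CPM in control. The lowest PP-MP library was above the highest control library, control 2. The fold change was 3.34-fold (log2 1.74, SE 0.43, 95% interval 0.70 to 2.77). It missed the edgeR threshold (adjusted p = 0.23) and passed that of DESeq2 (adjusted p = 0.014). Over the alternatives that tested it the log2 value ranged from 1.47 to 2.16 with adjusted p from 0.014 to 0.47. With a filter of a mean CPM of at least 1, Slc25a27 was not tested. Cyp39a1, an oxysterol hydroxylase gene that neighbours Slc25a27 in the RefSeq annotation and was looked up after these values were seen, had 11.9, 9.46 and 16.7 CPM in PP-MP 1, 2 and 3, against 10.8, 10.5 and 8.20 CPM in control 1, 2 and 3. Its groups overlapped. The other uncoupling-protein-like members also overlapped, with Slc25a30 at 27.98 ± 9.61 CPM in PP-MP and 27.3 ± 4.70 CPM in control and Slc25a14 at 1.31 ± 0.136 CPM in PP-MP and 1.44 ± 0.0740 CPM in control.

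Slc25a47, a carrier found almost exclusively in liver, was second in level per length. It was at 345, 515 and 451 CPM in PP-MP 1, 2 and 3, against 436, 455 and 414 CPM in control 1, 2 and 3. The PP-MP libraries spanned the whole control range (log2 fold change 0.01, SE 0.19, 95% interval -0.44 to 0.45, edgeR adjusted p = 0.99). Slc25a46, which acts in mitochondrial fission and lipid exchange at the outer membrane, averaged 39.6 ± 2.70 CPM in PP-MP and 37.4 ± 11.8 CPM in control. Slc25a45, Slc25a48, Slc25a34, Slc25a35 and Slc25a53 averaged 15.3, 14.9, 2.54, 1.25 and 1.38 CPM in PP-MP, against 14.1, 16.0, 2.43, 0.889 and 1.23 CPM in control, all with overlap. Slc25a35 shares 1151 of its 3677 exonic bases with Rangrf on the opposite strand, a gene at 0.494 to 1.12 CPM, so its reads are uncertain. Slc25a43 had 10, 8 and 2 counts in PP-MP 1, 2 and 3, against 1, 7 and 4 in control 1, 2 and 3, and did not pass the filter. Slc25a54 had 0 counts in every library. The 4 members below the filter were thus Slc25a31, Slc25a41, Slc25a43 and Slc25a54.

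Fitted fold changes were lower among members of higher level. The 20 tested members of higher level per length had a median log2 fold change of -0.12, with 12 below and 8 above 0, and the 20 of lower level had 0.16, with 7 below and 13 above 0. Across the 40 members Spearman's rho between fold change and mean CPM, not divided by length, was -0.43, against -0.31 across all 18284 genes tested. Between fold change and exonic length rho was 0.41, against 0.11 across the 17352 genes with a length. Genes share the same 6 libraries and are not independent replicates, and levels enter both axes of the relation with level.

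**Figure D4:**
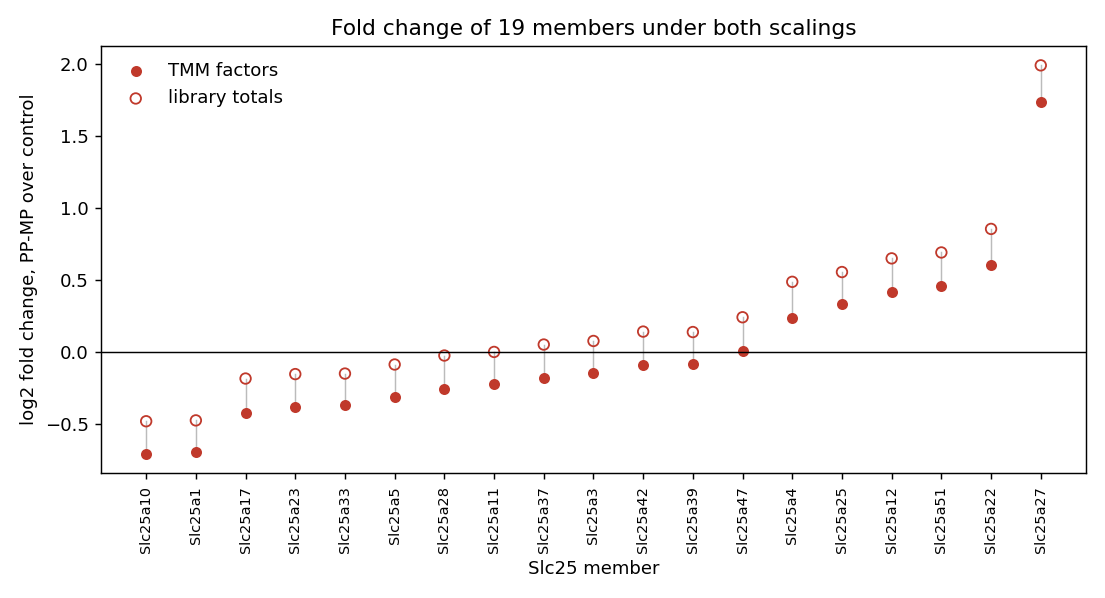
Log2 fold change, PP-MP over control, of 19 members under TMM factors (filled) and under library totals (open). Library totals place every member drawn higher, and Slc25a3, Slc25a11, Slc25a37, Slc25a39 and Slc25a42 move from below to above 0. Slc25a1, Slc25a5, Slc25a10, Slc25a17, Slc25a23, Slc25a28 and Slc25a33 are below 0 under both.

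Genes that work beside the carriers were read from lists chosen with the family. Of 13 genes of carrier import, 1 was lower with an unadjusted p under 0.05 (7.69%, background 5.81%) and 0 were higher (background 8.05%; median log2 fold change -0.04), a share near the background. That gene was Timm22, the core of the translocase that inserts carriers into the inner membrane, with 7.40, 9.03 and 9.84 CPM in PP-MP 1, 2 and 3, against 12.4, 11.2 and 13.9 CPM in control 1, 2 and 3 (log2 fold change -0.52, SE 0.17, edgeR adjusted p = 0.30). The median log2 fold change of 17 other mitochondrial transporters and channels was -0.08. Of these 3 were lower at an unadjusted p under 0.05 (17.6%, background 5.81%) and 0 higher (background 8.05%). They were Abcb10, an inner-membrane ABC transporter linked to haem synthesis (log2 fold change -0.50, edgeR adjusted p = 0.25), Letm1, a cation exchanger (-0.46, adjusted p = 0.34), and Sfxn5, a sideroflexin (-0.49, adjusted p = 0.34). Without overlap 4 of the 17 were lower (background 9.79%) and 1 was higher (background 12.2%). Vdac1, the outer-membrane channel, was the other gene lower without overlap (-0.40) and Sfxn2, another sideroflexin, the higher one (0.31). Of 8 regulators of mitochondrial gene expression, Ppargc1a and Esrra among them, 0 reached an unadjusted p under 0.05 in either direction (median -0.06), and edgeR's adjusted p called 0 genes of any of these lists. Of 8 family relatives outside the chosen set, 6 were tested and 1, Mtch1, was lower at an unadjusted p under 0.05 (16.7%, background 5.81%). The log2 fold change of Mtch1 was -0.42 (edgeR adjusted p = 0.36). The brown-fat uncoupling protein gene Ucp1 and Ucp3 had 0 counts in all libraries.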

How the data were processed

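Per the labels' protocols, poly(A) RNA of total liver RNA was made into directional NEBNext Ultra II libraries. Per the submitters' processing notes, bcl2fastq and GRCm39 were used, with no version given. The labels name no aligner, counting tool, strand setting or annotation. The authors deposited raw read counts per gene symbol, and the 6 per-sample files were identical to the columns of the series table.

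Counts were filtered with filterByExpr by diet, scaled with TMM and fitted unpaired with edgeR 4.0.16 (robust quasi-likelihood F test, two-sided; R 4.3.3) over all 18284 genes passing, with Benjamini-Hochberg adjustment and a threshold of 0.05. SE and 95% intervals come from that fit. DESeq2 1.42.0 and limma-voom 3.58.1 were alternatives, with other scalings, filters, a replicate block and left-out libraries. Levels per kilobase used exonic lengths of GENCODE M21 (GRCm38), matched by symbol for all 44 members. The principal components used log2(CPM + 0.5). Motifs were counted per gene in RefSeq windows of 300 bases, both strands.

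The family, the gene lists and the tests were chosen with earlier results of these data known. Members named singly are those with an unadjusted p under 0.05, 16 listed carriers, the 5 of highest level per length and those below the filter, and other names carry levels. Values of 1 member are not reported here. Total counts of 68357478 to 112566641 per library set the counting error, while SE and intervals also hold the differences between libraries. Figures used Python 3.11.15, pandas 2.3.3 and matplotlib 3.10.9.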

Additional observations from a re-analysis of the deposited data

How the results depend on the processing

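Leaving out each library in turn, 5 to 10 members were lower and 4 to 7 higher without overlap, and edgeR called 0. Of all genes 15.9% to 24.8% were then higher. That share was above the members' share except without control 3 (17.5% of members, 15.9% of all genes). The members' lower share was 15% without PP-MP 1 (all genes 12.9%) and 15% without PP-MP 3 (all genes 15.2%). It was 12.5% without control 1 (all genes 12.8%) and 12.5% without control 3, near that of all genes. It was 17.5% without PP-MP 2 (all genes 13.4%) and 25% without control 2 (all genes 19.3%). Over the same left-out libraries log2 fold changes changed sign for Slc25a4 (-0.059 to 0.52), Slc25a37 (-0.39 to 0.015), Slc25a39 (-0.27 to 0.12), Slc25a42 (-0.19 to 0.0088) and Slc25a47 (-0.13 to 0.15), and the Slc25a28 share of the mitoferrins differed by -3.30 to 1.51 percentage points. With library totals 0 members (all genes 2.59%) were lower and 6 (15%, all genes 24.5%) higher without overlap. The members' median was then 0.25 (all genes 0.26) and the log2 ratio of the summed level 0.019. Slc25a3 (0.077), Slc25a11 (0.0011), Slc25a37 (0.052), Slc25a39 (0.14) and Slc25a42 (0.14) turned positive, as every gene shifts upward by construction. Slc25a47 was at -0.013 with DESeq2 size factors, with the DESeq2 test and with limma-voom. DESeq2 called 1 member, Slc25a27. Without control 2 and PP-MP 1 together, chosen after seeing the data, 11 members were lower and 11 higher without overlap (27.5% each; 24.4% and 29.0% of all genes with 2 against 2 libraries), the median was 0.13 (all genes 0.035) and Slc25a37 was at 0.0066. The cause of these other changes was not tested.

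Same-numbered samples gave no sign of pairing (correlations of deviations -0.071, -0.11 and 0.065; 2 of 6 libraries correlated best with their own number). With a replicate block edgeR called 0 members, and Slc25a47 was at -0.012. Slc25a2 and Slc25a18, at most 0.299 CPM in any library, have intervals too wide at this depth to bound their difference.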
